A study of Homo sapiens with 18 samples.

Results

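Cholesterol and fatty acids are built by enzymes whose genes share one set of transcription factors, the sterol regulatory element-binding proteins (SREBPs). The genes described here are 29 genes of that pathway, chosen by name as 16 sterol synthesis enzymes, 8 fatty acid and glycerolipid enzymes, and 5 regulators including a sterol carrier. They are 29 of the 23621 genes in the expression table, and all 29 were among the 12771 genes with enough signal to be tested. The cells were GIST-T1, a single human cell line from a gastrointestinal stromal tumor, labelled as depending on the receptor tyrosine kinase KIT. They received the kinase inhibitor imatinib for 6 h, JQ1 for 6 h, imatinib for 24 h, JQ1 for 24 h, or imatinib with JQ1 for 24 h, or the solvent DMSO, for which the labels give no time. Each drug was used at 500 nM, and JQ1 is a BET inhibitor, which competes with acetylated histones for the bromodomains of BET proteins. Each of the 6 groups had 3 libraries. Whether the 3 came from separate cultures is not stated, so the p-values speak only to how far these libraries scatter, and that scatter may be technical.

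SREBF1 and SREBF2 encode the SREBPs, which are held in the endoplasmic reticulum by SCAP and INSIG1 while sterols are plentiful. When sterols fall, SCAP carries the SREBPs to the Golgi, where proteases release a fragment that enters the nucleus and binds sterol regulatory elements. SREBF2 is best known for sterol synthesis genes and a form of SREBF1 for fatty acid synthesis genes, and INSIG1 is itself a target whose product closes the feedback. Imatinib blocks KIT, the driver kinase of most gastrointestinal stromal tumors.

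Promoter sequences were taken from RefSeq (GRCh38.p14) for 5 members on which the results turn: SREBF2 as the pathway's own factor, INSIG1 and TM7SF2 as the members that stood highest against the other genes, and SCD and STARD4 as 2 of the 4 members called lower on every scale when imatinib was added to JQ1. Each run is the 250 bases before the annotated gene start, 5′ to 3′ on the gene's strand, at chr22:41832855-41833104 (plus strand) for SREBF2, chr7:155297628-155297877 (plus) for INSIG1, chr11:65111622-65111871 (plus) for TM7SF2, chr10:100346983-100347232 (plus) for SCD and chr5:111512536-111512785 (minus) for STARD4. Capitals mark matches to the sterol regulatory element core TCACNCCAC, the E-box CACGTG and the NF-Y box CCAAT, which reads ATTGG on the other strand.
SREBF2: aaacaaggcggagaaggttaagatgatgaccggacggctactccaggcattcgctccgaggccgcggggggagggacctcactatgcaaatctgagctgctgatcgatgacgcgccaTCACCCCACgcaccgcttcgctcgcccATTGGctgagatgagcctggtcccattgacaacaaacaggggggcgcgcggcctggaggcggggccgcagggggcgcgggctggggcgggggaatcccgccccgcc
INSIG1: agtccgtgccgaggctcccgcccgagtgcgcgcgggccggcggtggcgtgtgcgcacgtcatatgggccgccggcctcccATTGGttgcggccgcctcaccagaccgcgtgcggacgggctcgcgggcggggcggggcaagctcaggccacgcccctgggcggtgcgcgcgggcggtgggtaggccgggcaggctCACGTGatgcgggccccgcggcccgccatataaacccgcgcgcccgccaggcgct
TM7SF2: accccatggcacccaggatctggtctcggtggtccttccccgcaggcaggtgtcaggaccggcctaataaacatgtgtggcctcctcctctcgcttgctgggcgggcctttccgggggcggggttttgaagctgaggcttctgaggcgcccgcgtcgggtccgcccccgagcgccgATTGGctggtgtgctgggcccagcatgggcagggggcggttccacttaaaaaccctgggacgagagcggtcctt
SCD: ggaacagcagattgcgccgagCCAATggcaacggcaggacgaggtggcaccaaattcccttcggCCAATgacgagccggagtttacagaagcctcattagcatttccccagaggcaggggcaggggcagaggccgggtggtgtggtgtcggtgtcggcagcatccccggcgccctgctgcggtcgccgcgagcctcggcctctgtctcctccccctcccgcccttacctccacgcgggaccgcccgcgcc
STARD4: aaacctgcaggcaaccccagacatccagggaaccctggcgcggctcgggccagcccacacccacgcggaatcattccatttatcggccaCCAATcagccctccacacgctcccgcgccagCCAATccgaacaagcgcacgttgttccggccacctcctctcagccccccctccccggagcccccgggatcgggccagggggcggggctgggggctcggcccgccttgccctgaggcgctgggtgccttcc

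In a window of 250 bases before to 50 after the start, searched on both strands, 25 of the members could be matched by symbol; ACAT2, FDFT1, SQLE and FASN were not. TCACNCCAC stood in 1 matched member, SREBF2, with its first base at -133 from the start, and in 1.39% of all 27305 genes with a window. CACGTG, which is its own reverse complement, stood in 3 members, SCAP, INSIG1 and LSS, and in 8.77% of all genes. CCAAT stood in 18 of 25 members, or 72.0%, beside 39.7% of all genes; the members with it were 11 of 13 sterol enzymes, 4 of 7 fatty acid enzymes and 3 of 5 regulators. These matches describe letters in a window and no binding was measured.

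Levels are the authors' normalized FPKM, which divides reads by transcript length and by a library total. The values were taken as scaled to the ERCC spike-in RNA, because its sums were nearly equal in all libraries while those of the cells' genes were not. The summed FPKM of genes in a library lay between 286566 and 499857 with both drugs, against 1833221 to 2463615 in DMSO, while the spike-in sums of all libraries lay between 6505 and 6948. The tested genes had a median log2 change against DMSO of -0.69 with imatinib at 6 h, -1.0 with JQ1 at 6 h, -1.5 with imatinib at 24 h, -1.49 with JQ1 at 24 h and -2.05 with both. Per the labels, RNA was normalized to cell count before the spike-ins were added, a design meant to make a change against them one of RNA per cell. The counts themselves were not used here. Without them, less RNA per cell could not be told apart from an error in the number of cells. Each change is therefore given on this deposited scale and again after ratio rescaling, in which a library is divided by the median, over genes, of its ratio to a geometric mean of the libraries, so that a value of 0 means a change like that of the median gene. Of 6 markers of the tumor type, 0 averaged under 1 FPKM in DMSO, and their summed level lay between 113 and 198 FPKM with both drugs, against 1383 to 2084 in DMSO. Of 12 markers of epithelium, leukocytes, endothelium, hepatocytes and adipocytes, 10 averaged under 1 FPKM in DMSO, and CD68 and EPCAM were the exceptions.

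In DMSO the members spanned 6.15 to 295 FPKM, a scale that corrects for transcript length and so allows genes to be compared. SCD, the desaturase that makes monounsaturated fatty acids, was highest at 295 ± 63.4 FPKM (SD, n = 3), followed by EBP at 272 ± 63.5 and FDPS at 245 ± 47.6, whose SDs overlap. The next were SQLE at 216 ± 48.9, DHCR7 at 210.4 ± 44.3, INSIG1 at 207 ± 39.7 and FASN at 206 ± 50.7, which did not differ beyond their spread. These SDs include a scale that the genes of a library share. After ratio rescaling SCD was at 118 ± 4.36, EBP at 108 ± 7.93 and FDPS at 98.3 ± 4.55 in DMSO. There every SCD value exceeded every FDPS value, while the values of SCD and EBP overlapped. At the low end stood FADS1 at 6.15 ± 1.26, ACACA at 16.9 ± 3.57 and SCAP at 17.02 ± 4.0 FPKM. SREBF1 averaged 71.1 ± 19.02 FPKM, above SREBF2 at 43.5 ± 8.74, and the lowest SREBF1 library still exceeded the highest SREBF2 library. FDPS, HSD17B7 and SCD have near-identical pseudogene copies, and ACAT2 overlaps TCP1 on the opposite strand, so their values are uncertain where the authors' counting split or shared such reads.

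Against DMSO, members fell and none rose on the deposited scale, where a call needed an adjusted p below 0.05 and a log2 change of at least 1 in size (limma, Benjamini-Hochberg over all tested genes). The shares of all tested genes called higher were 0.384%, 0.642%, 0.642%, 0.399% and 0.235% in the 5 comparisons, in the order imatinib 6 h, JQ1 6 h, imatinib 24 h, JQ1 24 h and both drugs. Imatinib at 6 h lowered 7 of 29 members, beside 20.0% of all tested genes. JQ1 at 6 h lowered 9, beside 49.8%. At 24 h imatinib lowered 24, beside 72.1%, and JQ1 lowered 20, beside 75.3%. With both drugs 28 members fell, all but TM7SF2, beside 86.0% of all genes. The counts at 6 h depend on single DMSO libraries, since the count for imatinib came to 2 without DMSO library 3 and 17 without DMSO library 1, and that for JQ1 to 18 without DMSO library 1. For JQ1 at 24 h the count was 12 without DMSO library 3. The calls over all 12771 tested genes moved as well. With imatinib at 6 h 2559 were called lower, 1622 without DMSO library 3 and 3971 without DMSO library 1. With JQ1 at 6 h 6356 were called lower, and 7871 without DMSO library 1. With JQ1 at 24 h 9621 were called lower, and 8933 without DMSO library 3.

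After ratio rescaling few members were called. Imatinib at 6 h gave 0 calls higher and 0 lower, beside 1.22% and 2.08% of all genes. JQ1 at 6 h gave 3 higher, namely INSIG1, TM7SF2 and IDI1, beside 2.47% of all genes, and 0 lower, beside 2.58%. Imatinib at 24 h gave 2 higher, TM7SF2 and CYP51A1, beside 8.8%, and 1 lower, ELOVL6, beside 8.75%. JQ1 at 24 h gave 5 higher, INSIG1, TM7SF2, IDI1, FDFT1 and SCD, beside 5.26%, and 1 lower, ELOVL6, beside 6.48%. Both drugs gave 1 higher, TM7SF2, beside 9.19%, and 3 lower, STARD4, ELOVL6 and FADS2, beside 10.2%. With JQ1 at 24 h, 22 of 29 members lay above the median change of all genes on the deposited scale and 25 after ratio rescaling. Scaling libraries to one summed FPKM instead called 0 members higher and 0 lower with imatinib at 6 h (beside 1.2% and 2.08% of all genes), 1 and 0 with JQ1 at 6 h (1.35% and 5.7%), 6 and 0 with imatinib at 24 h (19.1% and 3.85%), 7 and 1 with JQ1 at 24 h (6.52% and 5.29%), and 3 and 3 with both (11.3% and 8.46%). The counts above the all-gene median, deposited and ratio rescaled, were 9 and 9 with imatinib at 6 h, 20 and 21 with JQ1 at 6 h, 13 and 15 with imatinib at 24 h, and 12 and 14 with both drugs. The 5 comparisons share the same 3 DMSO libraries, so they are not independent of each other.

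**Figure D1:**
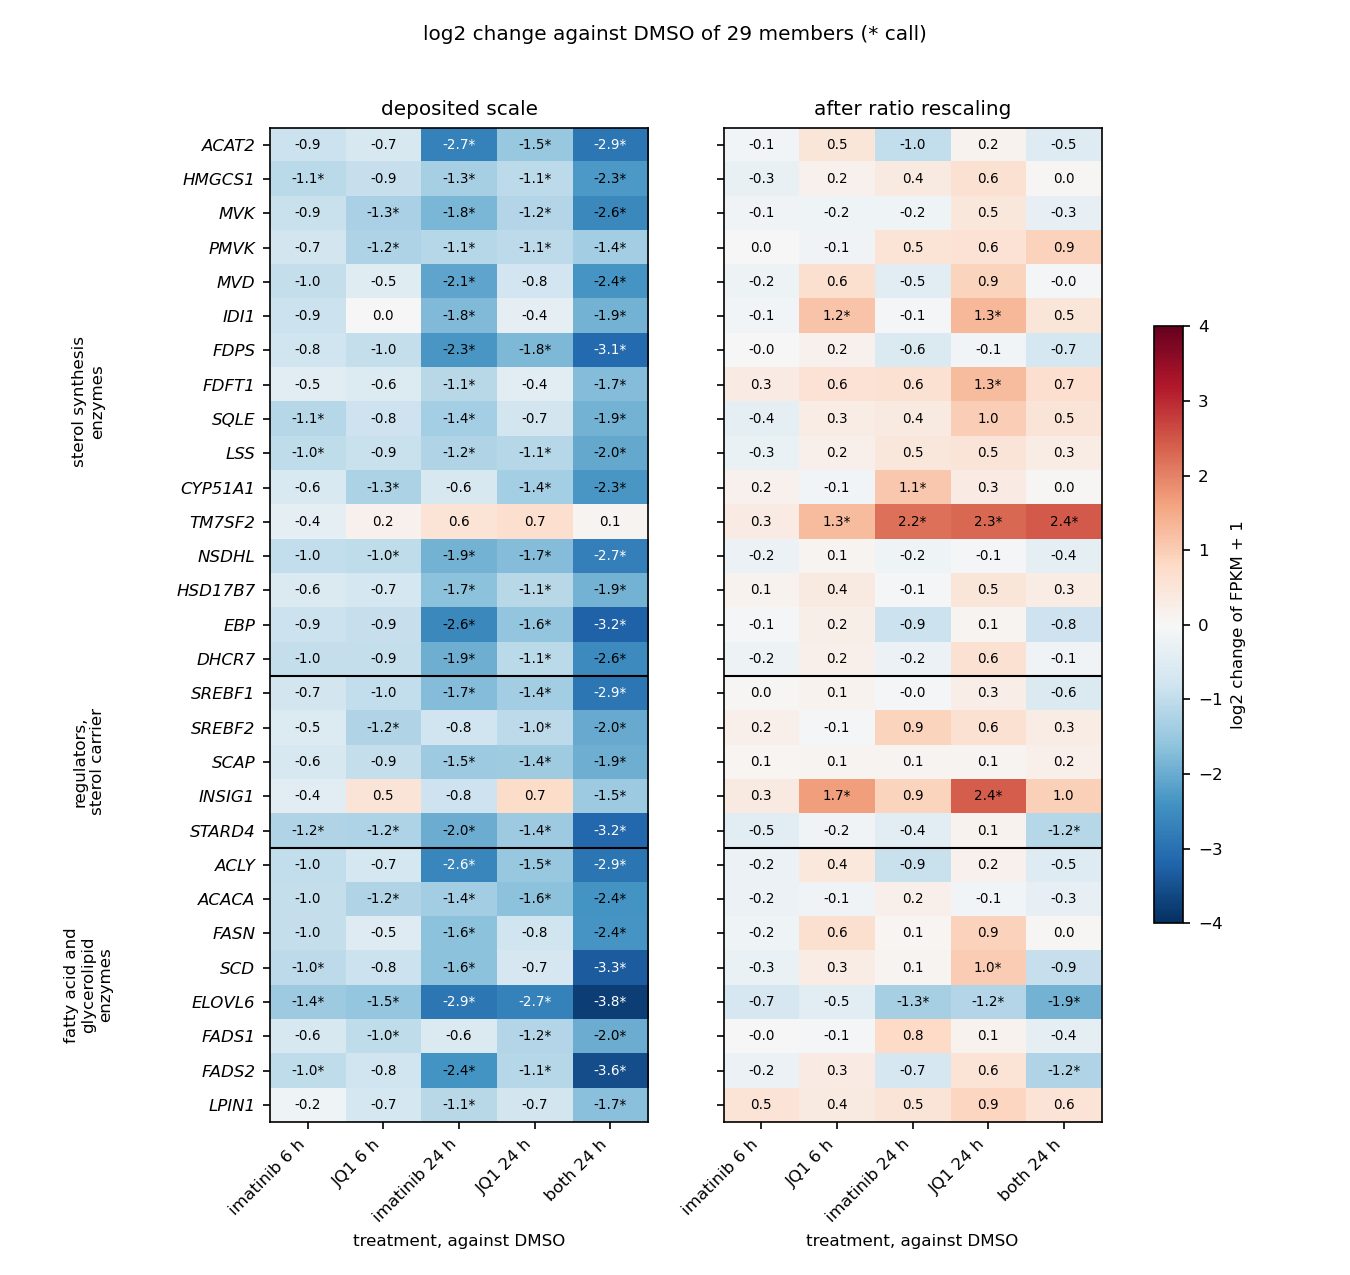
Log2 change against DMSO of the 29 members (rows) in 5 treatments (columns), on the deposited scale (left) and after ratio rescaling (right); colour and printed value give the change, and an asterisk marks a call. On the left, only INSIG1, TM7SF2 and IDI1 hold values above 0, and on the right TM7SF2 is among the 3 highest and ELOVL6 the lowest in each column.

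Among the regulators, SREBF1 had 20.2, 20.4 and 20.05 FPKM with imatinib at 24 h, 22.6, 26.2 and 29.4 with JQ1 at 24 h and 6.84, 11.4 and 7.72 with both drugs, against 54.6, 66.9 and 91.9 in DMSO. Every library of these 3 groups lay below every DMSO library. The log2 changes were -1.73 ± 0.19 (SE), -1.39 ± 0.19 and -2.9 ± 0.19, with adjusted p of 1.0e-08, 3.1e-07 and 1.2e-12 by limma. After ratio rescaling they were -0.038, 0.28 and -0.58 and none was a call. At 6 h SREBF1 had 38.7, 40.9 and 46.05 FPKM with imatinib and 33.04, 33.5 and 37.2 with JQ1, with log2 changes of -0.72 ± 0.19 and -0.99 ± 0.19 that were no calls; the JQ1 value was a call without DMSO library 1, DMSO library 2 or JQ1 6 h library 3.

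SREBF2 had 29.1, 26.8 and 31.9 FPKM with imatinib and 18.1, 17.01 and 19.3 with JQ1 at 6 h, and 23.4, 24.8 and 24.4 with imatinib, 17.5, 19.8 and 24.05 with JQ1 and 7.51, 13.9 and 9.0 with both at 24 h, against 36.02, 41.4 and 53.1 in DMSO. All treated libraries lay below the DMSO libraries, and those with both drugs were the lowest. It fell with JQ1 at both times (-1.2 and -1.05) and with both drugs (-2.02 ± 0.19), while the changes of -0.54 and -0.80 with imatinib were no calls. The JQ1 24 h call was lost without DMSO library 3 or the unnumbered JQ1 24 h library. After ratio rescaling none was a call and the values turned to 0.60 with JQ1 at 24 h and 0.29 with both drugs, with -0.091 for JQ1 at 6 h. The value with imatinib at 24 h was 0.88, which became a call of 1.31 when libraries were brought to one summed FPKM instead.

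INSIG1, the feedback anchor of SCAP, had 309, 268 and 308 FPKM with JQ1 at 6 h and 299.6, 350.3 and 373 at 24 h, against 162, 221 and 238 in DMSO. All 6 JQ1 libraries exceeded all DMSO libraries, although the median gene was lower. The log2 changes of 0.52 ± 0.19 (adjusted p = 0.011, limma) and 0.73 ± 0.19 (adjusted p = 8.2e-04) were under the fold threshold. They were calls of 1.66 and 2.43 after ratio rescaling, and of 1.33 and 2.53 after scaling to one summed FPKM. With imatinib INSIG1 had 155, 149.5 and 152 FPKM at 6 h and 110.1, 125 and 110.4 at 24 h, all below DMSO, with changes of -0.42 ± 0.19 and -0.82 ± 0.19 that were no calls. With both drugs it fell to 55.7, 96.4 and 75.01 FPKM, a log2 change against DMSO of -1.46 ± 0.19 (adjusted p = 1.0e-07, limma), which after ratio rescaling was 0.96 and no call, except without DMSO library 2. Scaled to one summed FPKM, INSIG1 was at 1.35 with imatinib at 24 h and 1.09 with both drugs, past the fold threshold. Its direction against DMSO thus turned with the scale in both imatinib groups and with both drugs, but not with JQ1 alone.

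SCAP, the escort protein, fell with imatinib at 24 h (-1.46 ± 0.18), JQ1 at 24 h (-1.41 ± 0.18) and both drugs (-1.95 ± 0.18), and after ratio rescaling its values were 0.11, 0.12 and 0.19. STARD4, a soluble carrier that moves cholesterol between membranes, had 4.37, 4.96 and 4.96 FPKM with imatinib at 24 h, 6.72, 7.45 and 8.18 with JQ1 at 24 h and 1.30, 1.87 and 1.58 with both, against 18.6, 24.7 and 22.9 in DMSO. No treated library overlapped DMSO. STARD4 fell in all 5 comparisons, with changes between -1.21 (imatinib at 6 h) and -3.16 ± 0.15 (both drugs), and the combined value stayed a call of -1.16 after ratio rescaling.

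**Figure D2:**
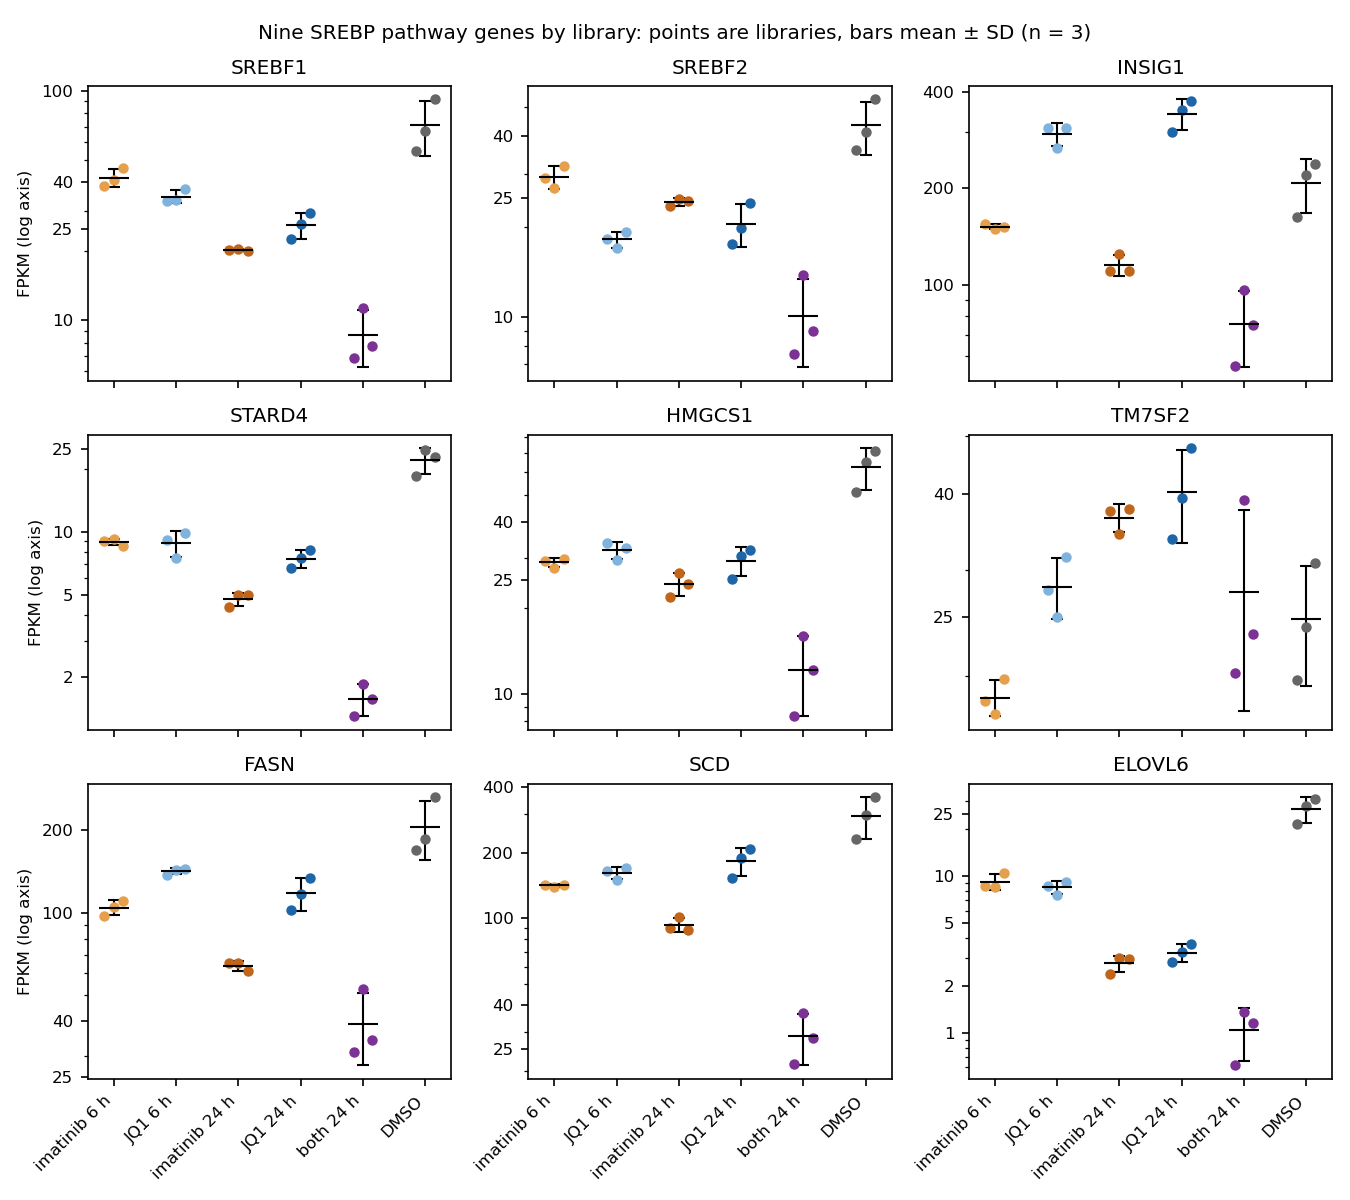
FPKM (log axis) of SREBF1, SREBF2, INSIG1, STARD4, HMGCS1, TM7SF2, FASN, SCD and ELOVL6 as points for the 18 libraries; bars give group means ± SD (n = 3). INSIG1 stands above DMSO in both JQ1 groups and below it with both drugs, TM7SF2 has means above that of DMSO in all 3 groups at 24 h, and the other 7 genes are lowest with both drugs.

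The sterol enzymes were read in pathway order. ACAT2, which joins acetyl-CoA units, HMGCS1, which makes HMG-CoA, and MVK, PMVK and MVD, which turn mevalonate into isopentenyl diphosphate, all fell with imatinib at 24 h and with both drugs. HMGCS1 had 29.3, 27.6 and 29.8 FPKM with imatinib and 33.9, 29.4 and 32.4 with JQ1 at 6 h, and 21.9, 26.6 and 24.3 with imatinib, 25.4, 30.4 and 32.1 with JQ1 and 8.35, 16 and 12.1 with both at 24 h, against 51.1, 65.2 and 71.2 in DMSO. No treated library reached the DMSO libraries. HMGCS1 changed by -1.32 ± 0.19 with imatinib at 24 h and by -2.3 ± 0.19 with both drugs, but by 0.37 and 0.037 after ratio rescaling, where it was never a call. ACAT2 was the member second lowest with imatinib at 24 h, with 13.99, 16.6 and 15.9 FPKM against 83.2, 108 and 129.8 in DMSO and a change of -2.69 ± 0.19, or -0.99 after ratio rescaling, just short of a call, which it passed without DMSO library 1, imatinib 24 h library 2 or imatinib 24 h library 3. MVK was second lowest with JQ1 at 6 h, at -1.29 ± 0.19. PMVK, at -1.4 ± 0.19, was second highest with both drugs; after ratio rescaling this was 0.94, and its call with imatinib at 24 h was lost without DMSO library 3.

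IDI1, which isomerises isopentenyl diphosphate, had 93.6, 76.1 and 95.3 FPKM with JQ1 at 6 h and 61.8, 68.9 and 72.01 at 24 h, against 70.95, 93.6 and 97.2 in DMSO. Libraries of both times overlapped DMSO. Its changes were 0.024 ± 0.17 and -0.35 ± 0.17, neither a call; after ratio rescaling both were calls, at 1.15 and 1.33, and scaling to one summed FPKM kept the 24 h call (1.42) but not that at 6 h (0.83). With imatinib at 24 h IDI1 fell, with a log2 change of -1.77, or -0.065 after ratio rescaling. FDPS, the farnesyl diphosphate synthase at the branch to isoprenoids, was second lowest with JQ1 at 24 h, at -1.8 ± 0.20. FDFT1, which commits farnesyl diphosphate to squalene, changed by -0.42 ± 0.19 with JQ1 at 24 h, no call, and by 1.27 after ratio rescaling, a call that scaling to one summed FPKM kept at 1.37.

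After squalene, SQLE and LSS form lanosterol, CYP51A1 demethylates it, TM7SF2 reduces the product, NSDHL and HSD17B7 help remove further methyl groups, and EBP and DHCR7 finish the ring. CYP51A1 had 76.9, 88.7 and 83.7 FPKM with imatinib at 24 h, 43.4, 49.9 and 56.97 with JQ1 at 24 h and 18.5, 32.4 and 25.5 with both drugs, against 106, 138 and 149.8 in DMSO. It fell with JQ1 at 24 h (-1.36 ± 0.19) and with both drugs (-2.34 ± 0.19), and its change of -0.64 ± 0.19 with imatinib was no call. After ratio rescaling the imatinib value was a call of 1.08, kept at 1.53 by scaling to one summed FPKM, and those with JQ1 and both drugs were 0.32 and 0.050. EBP, with 21.6, 38.9 and 24.3 FPKM under both drugs against 203, 282 and 329 in DMSO, had the lowest change of the sterol enzymes there, -3.24 ± 0.20, or -0.84 after ratio rescaling and no call. SQLE, LSS, NSDHL, HSD17B7 and DHCR7 fell with imatinib at 24 h, with log2 changes between -1.21 (LSS) and -1.94 (DHCR7), and with both drugs, between -1.9 (SQLE) and -2.74 (NSDHL). After ratio rescaling none of the 5 was a call, with values between -0.22 and 0.47 for imatinib at 24 h and between -0.38 and 0.51 for both drugs.

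TM7SF2 was the member highest with imatinib at 24 h and with both drugs, and the exception among the sterol enzymes. It had 27.8, 25.04 and 31.5 FPKM with JQ1 at 6 h, 37.5, 34.3 and 37.9 with imatinib at 24 h, 33.7, 39.5 and 47.7 with JQ1 at 24 h and 20.2, 39.1 and 23.5 with both drugs, against 19.7, 24.1 and 30.8 in DMSO. Both single-drug groups at 24 h lay above DMSO, and the libraries with both drugs overlapped it. The changes were 0.56 ± 0.20 with imatinib (adjusted p = 0.013, limma), 0.68 ± 0.20 with JQ1 (adjusted p = 0.0032) and 0.11 ± 0.20 with both (adjusted p = 0.6), none a call. After ratio rescaling it rose in all 3, by 2.21, 2.3 and 2.44, and scaling to one summed FPKM gave 2.65, 2.4 and 2.56. The rescaled call of 1.26 with JQ1 at 6 h was 0.94 and no call under the second scaling. With imatinib at 6 h TM7SF2 had 18.2, 17.3 and 19.8 FPKM, a change of -0.39 ± 0.20 and no call.

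In the fatty acid branch, ACLY makes cytosolic acetyl-CoA from citrate, ACACA makes malonyl-CoA and FASN builds palmitate from it. FASN had 97.4, 105 and 111 FPKM with imatinib and 137, 143 and 144 with JQ1 at 6 h, and 65.3, 65.6 and 60.9 with imatinib, 102, 117 and 134 with JQ1 and 31.03, 52.5 and 34.3 with both at 24 h, against 169, 185 and 264 in DMSO. All treated libraries lay below DMSO. FASN fell with imatinib at 24 h (-1.65 ± 0.19) and with both drugs (-2.37 ± 0.19) and was no call with JQ1 at 24 h (-0.78 ± 0.19); after ratio rescaling these were 0.080, 0.034 and 0.91, none a call. ACLY fell with imatinib at 24 h (-2.6 ± 0.20), with JQ1 (-1.52 ± 0.20) and with both (-2.91 ± 0.20), or -0.88, 0.17 and -0.52 after ratio rescaling. ACACA fell in the same 3 groups, at -1.38, -1.63 and -2.38, or 0.19, -0.11 and -0.32 after ratio rescaling.

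SCD had 142, 139 and 143 FPKM with imatinib and 165, 149.9 and 169.6 with JQ1 at 6 h, and 90.4, 102 and 88.2 with imatinib, 154, 188 and 208 with JQ1 and 21.5, 36.8 and 28.2 with both at 24 h, against 231, 296 and 358 in DMSO. The libraries with both drugs were below all others. SCD fell with imatinib at 24 h (-1.63 ± 0.19) and with both (-3.32 ± 0.19), and was no call with JQ1 at 24 h (-0.67 ± 0.19). After ratio rescaling the JQ1 value was a call of 1.03, lost without DMSO library 1 or JQ1 24 h library 2 and when totals were scaled without the MIR1244 rows (0.91). ELOVL6, which lengthens palmitate, was the lowest member in all 5 comparisons with DMSO, with changes of -1.44 ± 0.16 and -1.54 ± 0.16 with imatinib and JQ1 at 6 h, and -2.88 ± 0.16, -2.7 ± 0.16 and -3.77 ± 0.16 with imatinib, JQ1 and both at 24 h. It had 2.38, 2.98 and 2.95 FPKM with imatinib at 24 h, 2.82, 3.27 and 3.66 with JQ1 and 0.621, 1.36 and 1.16 with both, against 21.5, 27.9 and 31.3 in DMSO. After ratio rescaling it was still called lower at 24 h, at -1.31, -1.16 and -1.89, but the imatinib value was -0.94 and no call when scaled to one summed FPKM.

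FADS2 and FADS1, desaturases of polyunsaturated fatty acids, had unlike values under imatinib. FADS2 had 27.6, 28.8 and 27.7 FPKM with imatinib at 24 h, 56.6, 70.4 and 78.6 with JQ1 and 9.36, 16.3 and 10.8 with both, against 120.4, 149.8 and 189.6 in DMSO. It was second lowest with both drugs, at -3.56 ± 0.19 (adjusted p = 6.1e-14, limma), and stayed a call of -1.2 after ratio rescaling. FADS1 had 3.67, 3.62 and 3.91 FPKM with imatinib at 24 h, 1.90, 2.08 and 2.40 with JQ1 and 0.640, 1.02 and 0.698 with both, against 4.79, 6.39 and 7.28 in DMSO. With imatinib at 24 h FADS1 changed by -0.58 ± 0.13, no call, where FADS2 changed by -2.39 ± 0.19, and after ratio rescaling these were 0.81 and -0.67; the difference between the genes was not tested. LPIN1, a phosphatidate phosphatase of glycerolipid synthesis, fell with imatinib at 24 h (-1.11 ± 0.18) and both drugs (-1.67 ± 0.18), the imatinib call being lost without DMSO library 3, and was the highest member with imatinib at 6 h (-0.17 ± 0.18).

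The branches were compared by the median log2 change of their members, with no test because the members share a regulator and were picked as a list. At 6 h the sterol and fatty acid medians were -0.87 and -0.98 with imatinib, and -0.91 and -0.82 with JQ1. At 24 h they were -1.71 and -1.64 with imatinib, -1.1 and -1.16 with JQ1, and -2.32 and -2.65 with both drugs. The sterol median minus the fatty acid median was thus 0.11, -0.089, -0.073, 0.058 and 0.33. Under a pseudocount of 0.1 and 3 rescalings the imatinib 24 h difference lay between -0.17 and -0.15 and that of JQ1 at 24 h between 0.17 and 0.19. On the deposited scale the imatinib 24 h value was 0.016 without DMSO library 2, so its direction on that scale rests on that library. Under the rescalings this difference was not computed with single libraries left out. With all libraries the difference with both drugs was the widest of the 5, and in single libraries it lay between 0.32 and 0.47. In the single-drug groups the library values of this difference were 0.076 to 0.15, -0.11 to -0.043, -0.095 to -0.032 and 0.0050 to 0.096. With both drugs the single changes ran between -3.24 and 0.11 among sterol enzymes and between -3.77 and -1.67 among fatty acid enzymes, so the branches overlap widely. After ratio rescaling the difference with both drugs was 0.48. Of the 8 fatty acid enzymes 2 were called lower there, ELOVL6 and FADS2, and of the 16 sterol enzymes 0, beside 10.2% of all tested genes. The 1 member called higher was the sterol enzyme TM7SF2, beside 9.19%. Whether these small counts differ between the branches was not tested.

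On the deposited scale the calls lower divided as follows between the branches. With imatinib at 6 h 3 of 16 sterol and 3 of 8 fatty acid enzymes were called, and with JQ1 at 6 h 4 and 3. At 24 h the counts were 14 and 7 with imatinib, 11 and 5 with JQ1, and 15 and 8 with both drugs, and the shares of all tested genes called lower were 20.0%, 49.8%, 72.1%, 75.3% and 86.0% in the same order.

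**Figure D3:**
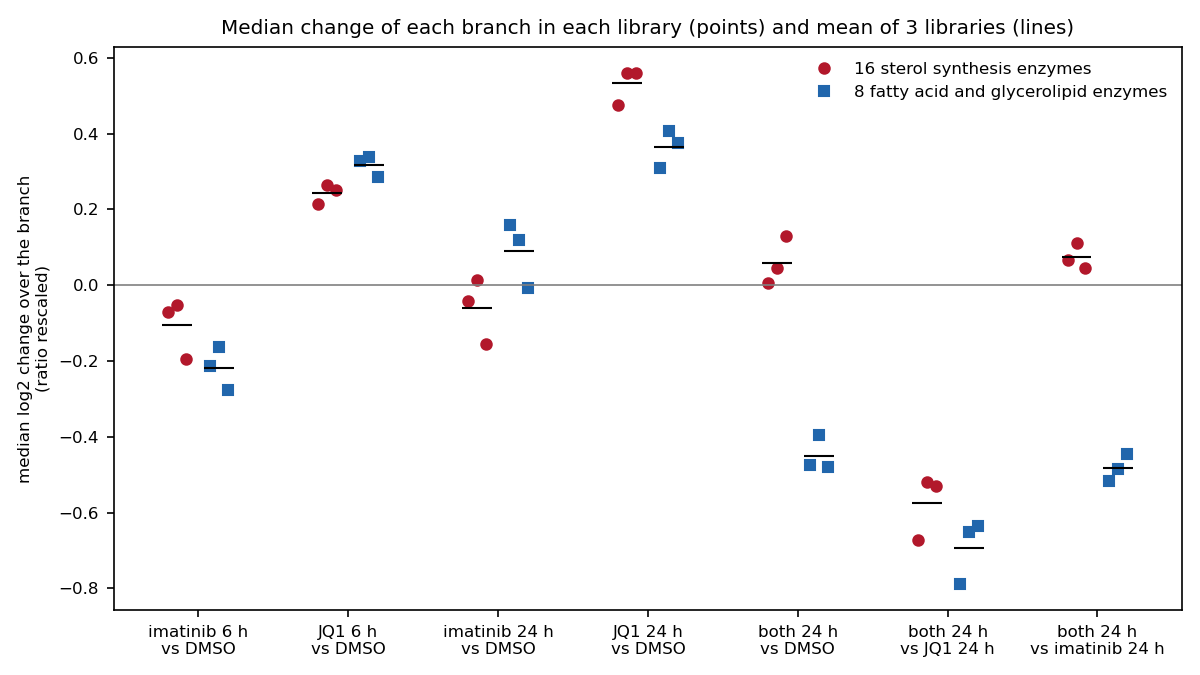
Median log2 change (vertical axis, ratio rescaled) over 16 sterol synthesis enzymes (circles) and 8 fatty acid and glycerolipid enzymes (squares) in each of the 3 libraries of the first-named group, for 7 comparisons (horizontal axis); lines are means of 3. The branches lie furthest apart with both drugs against DMSO and against imatinib, where the fatty acid medians are lower, and both lie below 0 when both drugs are set against JQ1.

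Adding imatinib to JQ1 lowered most members. Of the 29, 19 fell in cells with both drugs relative to JQ1 alone at 24 h, beside 7.35% of all tested genes, 0 rose, beside 0.047%, and 27 lay below the all-gene median of -0.54. That background holds many low genes, whose changes the added 1 understates. Among the 9043 genes averaging 5 FPKM or more, 930 fell and the median was -0.63, with 19 members lower. With a pseudocount of 0.1, 1893 of 12771 genes fell and the median was -0.67, with 23 members lower. The calls were 11 of 16 sterol enzymes, 5 of 8 fatty acid enzymes and 3 of 5 regulators, and the branch medians were -1.27 and -1.23. After ratio rescaling 4 members were called lower, beside 0.814% of all genes, 0 higher, beside 0.235%, and 26 lay below the median. The 4 called were SCD (-2.65 ± 0.19, -1.94 rescaled), FADS2 (-2.42 ± 0.19, -1.75), INSIG1 (-2.19 ± 0.19, -1.47) and STARD4 (-1.71 ± 0.15, -1.29). All 4 stayed calls after scaling to one summed FPKM, beside 0.783% of all genes lower and 0.251% higher. Their libraries with both drugs lay below all of those with JQ1 alone, which was true of most members. On the deposited scale it held for 14 of 16 sterol enzymes, 8 of 8 fatty acid enzymes and 4 of 5 regulators. The share over all genes was not counted, so this separation is not read as particular to the members. Without the fold threshold limma called 9379 of all 12771 tested genes lower there, beside 28 of 29 members. Of the deposited calls, those of SQLE, NSDHL and ELOVL6 were lost when single libraries were left out (SQLE and ELOVL6 without combination library 1, ELOVL6 without JQ1 24 h library 3, NSDHL without JQ1 24 h library 2 or 3 or combination library 1 or 3).

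Adding JQ1 to imatinib lowered fewer. Relative to imatinib alone at 24 h, 7 members fell with both drugs, CYP51A1, SREBF1, SREBF2, STARD4, SCD, FADS1 and FADS2, beside 14.5% of all genes, and 0 rose, beside 0.423%. The count was 13 without library 2 of the combination, the highest of its group in all 29 members. The share of all genes called in that fit is not given here, so the move from 7 to 13 is not read as particular to the members. After ratio rescaling 3 were called, CYP51A1 (-1.7 ± 0.19, -1.03 rescaled), SCD (-1.69 ± 0.19, -1.02) and FADS1 (-1.41 ± 0.13, -1.17), beside 5.6% of all genes, and 0 higher, beside 2.37%. Scaling to one summed FPKM called these 3 and STARD4 lower, beside 10.4%, and 0 higher, beside 1.17%. The rescaled SCD call was lost without imatinib 24 h library 2. The sterol and fatty acid medians were -0.61 and -0.95, beside -0.50 for all genes, and after ratio rescaling 0.069 and -0.52. The branch difference of 0.33 lay between 0.28 and 0.51 in single libraries. Against JQ1 it was -0.043, with library values of -0.058 to 0.055, and 0.13 after ratio rescaling. Both comparisons use the same combination libraries.

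**Figure D4:**
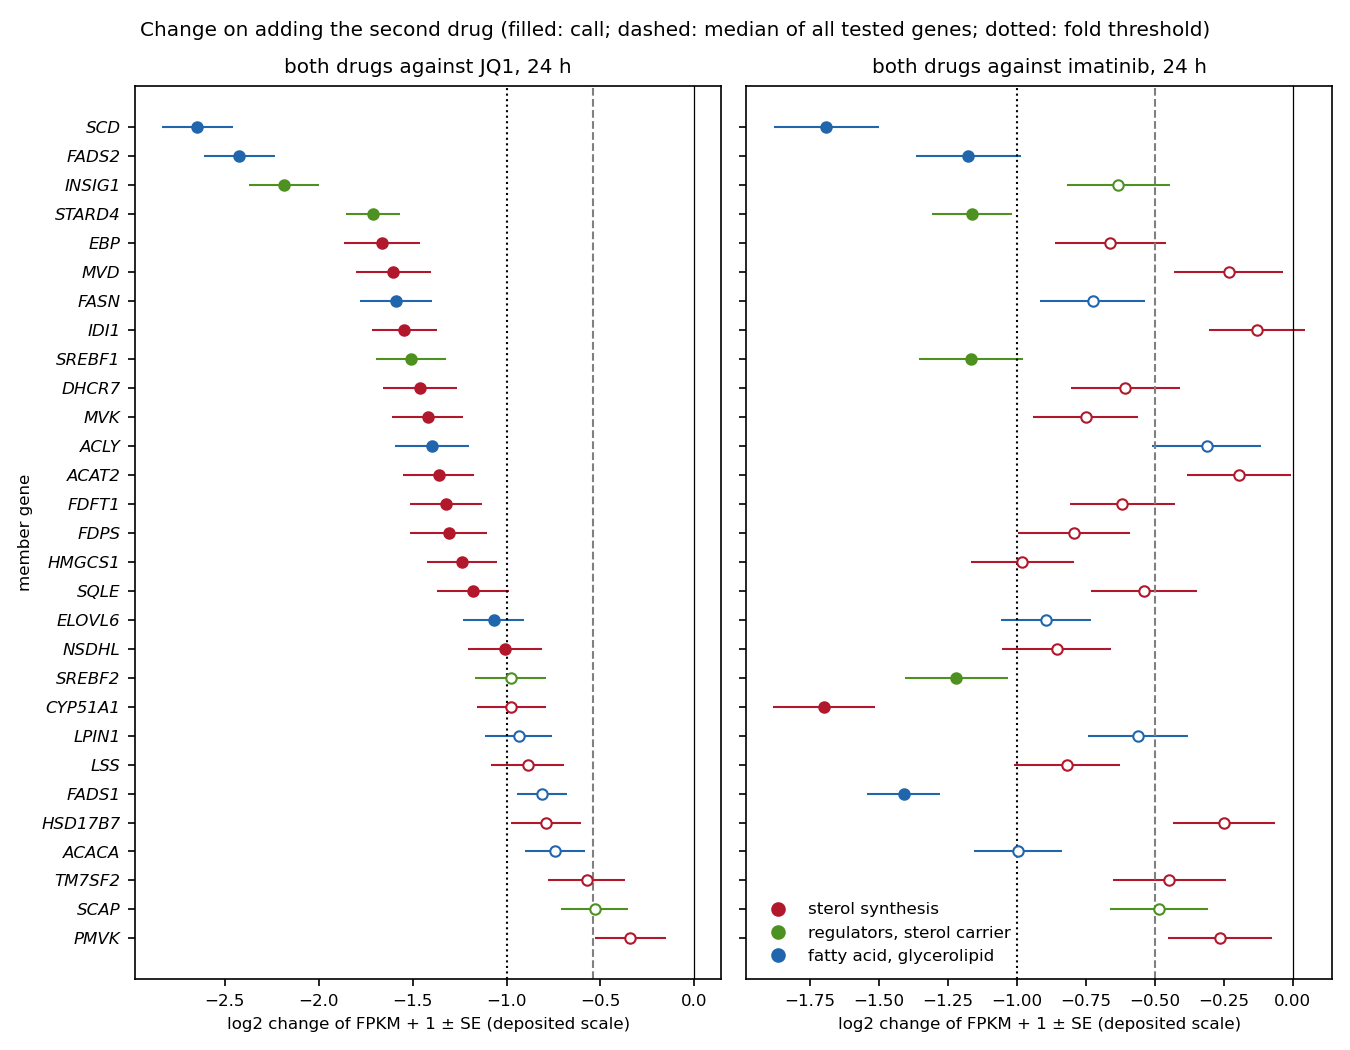
Log2 change ± SE (horizontal axis, deposited scale) of each member (rows) in cells with both drugs against JQ1 alone (left) and against imatinib alone (right) at 24 h; filled points are calls, the dashed line is the median of all tested genes and the dotted line the fold threshold. On the left 27 of 29 members lie below the dashed line, with SCD, FADS2 and INSIG1 lowest.

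The drugs were also set against each other. At 24 h 7 members were called higher with JQ1 than with imatinib, ACAT2, MVD, IDI1, EBP, INSIG1, ACLY and FADS2, beside 3.59% of all genes, and 0 lower, beside 4.88%. INSIG1 differed most, at 1.55 ± 0.19 (adjusted p = 7.2e-07, limma), followed by IDI1 at 1.41 ± 0.17 and MVD at 1.37 ± 0.20. FADS2 was at 1.25 ± 0.19, ACAT2 at 1.17 ± 0.19 and ACLY at 1.08 ± 0.20. After ratio rescaling all but EBP were called, beside 3.59% of all genes, and 0 lower, beside 6.1%. Scaling to one summed FPKM kept INSIG1, IDI1 and MVD, while ACAT2 (0.81), ACLY (0.71) and FADS2 (0.88) were no calls and CYP51A1 (-1.11) was called lower, beside 1.79% of all genes higher and 11.7% lower. EBP was at 1.0, and its call was lost without imatinib 24 h library 3 and without JQ1 24 h library 2 or 3, while that of ACLY was lost without JQ1 24 h library 3. The branch medians were 0.59 and 0.62, beside 0.040 for all genes, a branch difference of -0.028.

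At 6 h 0 members were called between the drugs on the deposited scale in either direction, beside 1.95% of genes higher and 9.36% lower with JQ1. Without the fold threshold limma gave 3 of 29 members higher and 5 lower, beside 908 higher and 5151 lower of all 12771 tested genes. After ratio rescaling IDI1 (1.25) and INSIG1 (1.32) were called higher with JQ1, beside 3.44% of all genes, and 0 lower, beside 3.32%. Scaling to one summed FPKM ended both calls (0.93 and 0.995), beside 1.84% higher and 6.78% lower. INSIG1 was at 0.95 ± 0.19 on the deposited scale, a call without JQ1 6 h library 2. Between times, imatinib at 24 h lowered 9 members relative to 6 h, beside 33.4% of all genes, with 0 higher, beside 0.501%. JQ1 at 24 h lowered 1, ELOVL6 (-1.16 ± 0.16), beside 14.2%, with 0 higher, beside 0.509%. After ratio rescaling the calls were TM7SF2 alone, higher at 24 h than at 6 h with imatinib (0.95 ± 0.20, 1.88 rescaled), beside 3.98% higher and 4.38% lower, and with JQ1 (0.50 ± 0.20, 1.04 rescaled), beside 2.68% and 3.46%. Scaling to one summed FPKM called 8 members higher at 24 h with imatinib, beside 12.1%, and 0 lower, beside 1.79%, and 8 higher with JQ1, beside 8.21%, and 0 lower, beside 1.21%.

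The interaction at 24 h is the JQ1 effect in imatinib-treated cells minus the JQ1 effect in DMSO, in log2 units. It asks whether the log2 changes of single drugs add up when both are given. Over all genes its median was 0.95 and 46.8% of tested genes were called higher and 0.932% lower. Of the members 4 were higher and 3 lower, and 25 of 29 lay below the all-gene median. The counts were 8 higher and 1 lower without DMSO library 1, 8 and 1 without combination library 1, and 2 and 3 without combination library 2. NSDHL, HSD17B7, EBP and SCAP were the members gained as higher calls without either of the first 2 libraries named. The calls over all 12771 genes moved as well, from 5974 higher and 119 lower to 6973 and 100 without DMSO library 1. For the combination libraries those calls are not given here, so the gained members are not read as particular to the pathway. With all libraries the lower ones were INSIG1 (-1.36 ± 0.26, adjusted p = 1.1e-04, limma), TM7SF2 (-1.13 ± 0.29) and SCD (-1.02 ± 0.27). They were at -2.37, -2.08 and -2.05 after ratio rescaling, where 8 members were called lower and 0 higher, beside 5.83% and 4.89% of all genes. The other 5 were CYP51A1 (-1.35), FADS1 (-1.31), FDFT1 (-1.21), SREBF2 (-1.19) and FADS2 (-1.08), which were no calls on the deposited scale. Scaling to one summed FPKM gave 17 lower and 0 higher, beside 14.5% and 1.8%. The deposited calls of TM7SF2 and SCD were lost when single libraries were left out, TM7SF2 without DMSO library 1 or combination library 1, and SCD without DMSO library 1, imatinib 24 h library 2, JQ1 24 h library 2 or 3, or combination library 1. In the branches the medians were 0.45 and 0.12, and -0.57 and -0.88 after ratio rescaling.

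Other genes of the pathway were counted from longer lists. Of 15 other sterol genes 5 fell with imatinib and 6 with JQ1 at 6 h, and 11 with imatinib, 12 with JQ1 and 14 with both at 24 h, beside 20.0%, 49.8%, 72.1%, 75.3% and 86.0% of all tested genes in the same order, and none rose. Their median with both drugs was -1.95, beside -2.05 for all genes, and 0.44 after ratio rescaling. TMEM97, a membrane protein of sterol handling, was at -3.07 ± 0.19 with both drugs, or -0.70 rescaled. MBTPS2, a protease that releases SREBPs, was at -1.72 ± 0.17 with JQ1 at 6 h and -2.23 ± 0.17 with both drugs, or -0.61 and 0.037. MSMO1, which oxidises a sterol methyl group, was at -2.29 ± 0.18 with both drugs, or 0.082 rescaled, and INSIG2, the relative of INSIG1, at -1.18 ± 0.16 with JQ1 at 6 h, or -0.18. NPC1, a lysosomal cholesterol transporter, was at -2.21 ± 0.17 with imatinib and -1.37 ± 0.17 with JQ1 at 24 h, or -0.58 and 0.25. NPC2, which hands cholesterol out of lysosomes, was called higher after ratio rescaling in all 3 groups at 24 h, at 2.22 with imatinib, 2.4 with JQ1 and 2.85 with both, where the deposited changes were 0.49 ± 0.19, 0.71 ± 0.19 and 0.43 ± 0.19. NPC2 was named after its values were seen.

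Of 20 other fatty acid genes tested, out of 21 listed, 6 fell with imatinib and 7 with JQ1 at 6 h, and 15 with imatinib, 12 with JQ1 and 17 with both at 24 h, beside 20.0%, 49.8%, 72.1%, 75.3% and 86.0% of all tested genes in the same order, and none rose. ME1, which supplies NADPH for lipid synthesis, was lowest with JQ1 at 24 h (-3.29 ± 0.17, -1.64 rescaled) and with both (-4.37 ± 0.17, -2.15), and stayed a call on both scales. HSD17B12, of the elongation cycle that ELOVL6 opens, was lowest with imatinib at 24 h (-3.04 ± 0.18, -1.33 rescaled), a ratio-rescaled call that scaling to one summed FPKM ended (-0.89). ELOVL1, another elongase, was at -3.0 ± 0.19 with both drugs and MID1IP1, an activator of acetyl-CoA carboxylase, at -2.88 ± 0.19; after ratio rescaling neither was a call (-0.62 and -0.59). ACSL4, an acyl-CoA synthetase, was at -1.44 ± 0.17 with imatinib at 6 h and -2.22 ± 0.17 at 24 h, or -0.67 and -0.60 rescaled. HACD3, a dehydratase of the elongation cycle, was at -1.42 ± 0.18 with JQ1 at 6 h, or -0.28, and the elongase ELOVL5 at -1.96 ± 0.19 with JQ1 at 24 h, or -0.27.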

How the data were processed

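RNA was measured in 18 libraries of GIST-T1 cells. Per the labels' protocols, RNA was normalized to cell count, ERCC spike-ins were added, and stranded mRNA libraries were read from one end for 75 bases. STAR, Cufflinks and hg19 are named in the submitters' processing notes, without versions. The authors deposited 1 table of normalized FPKM, with 23713 rows for 23621 genes and 92 spike-ins; the normalization step and any use of strand in counting are not given in the sources used here. Read depth is unknown, and precision is judged from scatter among libraries. One JQ1 24 h column carries a number that its group's titles lack and was kept as an unnumbered library.

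The test covered 12771 genes that reached 1 FPKM in 3 or more libraries. A single limma model (limma 3.58.1 in R 4.3.3) with an intensity trend on log2(FPKM + 1) held one mean per group, with 12 residual degrees of freedom. All p-values are two-sided, with Benjamini-Hochberg adjustment over all tested genes in each comparison. Calls had an adjusted p below 0.05 and a log2 size of 1 or more. The added 1 understates changes of low genes. The fit was checked on simulated data. Rescaled fits tested the same genes. Alternatives were a pseudocount of 0.1, testing all genes, testing those averaging 5 FPKM or more, ratio rescaling, scaling to one summed FPKM with and without the 3 MIR1244 rows, a replicate block, a fit of the compared groups only, no fold threshold, and leaving out each library.

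Members and lists were chosen with earlier results of these data known. Every member is named, SREBF1, SREBF2, INSIG1, HMGCS1, FASN and SCD by library; the 2 highest and 2 lowest members of each comparison with DMSO are given; and up to 4 called genes of largest size come from each further list and comparison. Some genes this rule selects are not reported here. Promoters came from RefSeq (GRCh38.p14), matched by symbol, since the files' build is hg19.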

Additional observations from a re-analysis of the deposited data

Results flagged for a closer look

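For 7 members the effect of one drug differed with the other drug present, by the interaction test at 24 h on the deposited scale (limma, Benjamini-Hochberg over all tested genes; call at a log2 of at least 1 in size). These values stand beside an all-gene median of 0.95 and 46.8% of genes called higher, so a call higher was common among all genes and a call lower was not. ACAT2 was at 1.33 ± 0.27, FDPS at 1.01 ± 0.29, ACLY at 1.2 ± 0.28 and ELOVL6 at 1.81 ± 0.23, and after ratio rescaling none of these 4 was a call (0.31, -0.015, 0.19 and 0.59). The FPKM of ELOVL6 with both drugs was near the size of the added 1, which limits how far its log2 change could fall. Its call higher, also where it held with libraries left out, cannot be told apart from that floor. TM7SF2 was at -1.13 ± 0.29, INSIG1 at -1.36 ± 0.26 and SCD at -1.02 ± 0.27, beside 0.932% of genes called lower, and all 3 were calls after ratio rescaling and after scaling to one summed FPKM. On the deposited scale the calls of INSIG1, ACAT2 and ELOVL6 held in each fit that left out 1 library, that of TM7SF2 was lost without DMSO library 1 or combination library 1, and that of SCD was lost without any one of DMSO library 1, imatinib 24 h library 2, JQ1 24 h library 2 or 3, or combination library 1. The ACLY call was lost without combination library 2, and that of FDPS without DMSO library 2 or 3, imatinib 24 h library 1 or 3, the unnumbered JQ1 24 h library, or combination library 2.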

How the results depend on the processing

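The sign of many changes depends on the scaling, and the cause was not tested. Members called against DMSO (either direction) under ratio rescaling, scaling to one summed FPKM and that without MIR1244 numbered 0, 0 and 0 with imatinib at 6 h, and 3, 1 and 2 with JQ1 at 6 h. At 24 h they numbered 3, 6 and 3 with imatinib, 6, 8 and 5 with JQ1, and 4, 6 and 5 with both drugs. The shares of all genes under the first 2 scalings are given with the calls above. Over all 12771 genes the scaling without MIR1244 called 145 higher and 284 lower with imatinib and 199 and 643 with JQ1 at 6 h. At 24 h it called 1301 and 1000 with imatinib, 533 and 1011 with JQ1, and 902 and 1659 with both drugs. Without the fold threshold the 6 h counts were 27 with imatinib and 27 with JQ1. Over all 12771 tested genes that setting called 233 higher and 10284 lower with imatinib, and 217 higher and 11688 lower with JQ1. Leaving out each library gave 2 to 17 with imatinib at 6 h, 7 to 18 with JQ1 at 6 h, 22 to 24 with imatinib at 24 h, 12 to 20 with JQ1 at 24 h and 28 in each fit with both drugs. In those fits the calls lower over all tested genes ran from 1622 to 3971 with imatinib at 6 h and from 5000 to 7871 with JQ1 at 6 h. The replicate block, which is no pairing here since only 4 of 40 same-numbered pairs correlated above 0.1 (r between -0.238 and 0.193), gave 7 with imatinib at 6 h, 9 with JQ1 at 6 h, 24 with imatinib at 24 h, 20 with JQ1 at 24 h and 28 with both drugs. Over all tested genes it called 2563, 6363, 9212, 9569 and 10986 lower in the same order.

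The sterol minus fatty acid difference moved beyond its spread over libraries as follows, in the order pseudocount 0.1, ratio rescaling, one summed FPKM and that without MIR1244: -0.15, -0.15, -0.17 and -0.15 with imatinib at 24 h; 0.17, 0.18, 0.18 and 0.19 with JQ1 at 24 h; 0.51, 0.48, 0.50 and 0.46 with both drugs; 0.62, 0.59, 0.57 and 0.57 with both drugs against imatinib; 0.19, 0.13, 0.13 and 0.12 with both drugs against JQ1. Scaled to one summed FPKM it was -0.063 with imatinib at 24 h against 6 h and 0.20 with JQ1 at 24 h against 6 h, the last 0.16 without MIR1244. Leaving out each library gave 0.061 to 0.18 with imatinib at 6 h, -0.095 to -0.043 with JQ1 at 6 h, -0.12 to 0.016 with imatinib at 24 h and -0.100 to -0.057 with imatinib at 24 h against 6 h.

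The alternatives followed the 2 highest and 2 lowest members of each comparison with DMSO and the 6 members given by library, not all 29. Among these, the changes against DMSO whose sign turned under 1 or more of 3 scalings, in the order ratio rescaling, one summed FPKM and that without MIR1244, were these. With imatinib at 6 h, TM7SF2 was at 0.34, 0.33 and 0.30; LPIN1 at 0.54, 0.54 and 0.51; SREBF1 at 0.042, 0.035 and 0.0063; SREBF2 at 0.21, 0.20 and 0.17; INSIG1 at 0.35, 0.34 and 0.31. With JQ1 at 6 h, SREBF1 was at 0.14, -0.18 and -0.11; HMGCS1 at 0.18, -0.13 and -0.059; FASN at 0.63, 0.30 and 0.38; SCD at 0.30, -0.028 and 0.048. With imatinib at 24 h, FADS1 was at 0.81, 1.18 and 0.88; SREBF1 at -0.038, 0.40 and 0.033; SREBF2 at 0.88, 1.31 and 0.95; INSIG1 at 0.90, 1.35 and 0.98; HMGCS1 at 0.37, 0.81 and 0.45; FASN at 0.080, 0.53 and 0.15; SCD at 0.10, 0.55 and 0.17. With JQ1 at 24 h, SREBF1 was at 0.28, 0.37 and 0.17; SREBF2 at 0.60, 0.69 and 0.49; HMGCS1 at 0.60, 0.70 and 0.49; FASN at 0.91, 1.01 and 0.80; SCD at 1.03, 1.13 and 0.91. With both drugs, PMVK was at 0.94, 1.06 and 0.79; SREBF2 at 0.29, 0.41 and 0.15; INSIG1 at 0.96, 1.09 and 0.81; HMGCS1 at 0.037, 0.16 and -0.11; FASN at 0.034, 0.16 and -0.11. TM7SF2 with both drugs was 0.11, and -0.038 without DMSO library 1 and -0.16 without combination library 2. Of 64 changes of named members followed through the alternatives, 63 kept direction and call with a pseudocount of 0.1, 64 with no filter, 64 with the replicate block and 64 in the fit of the compared groups only. Leaving out 1 library at a time, 379 values kept both, 14 lost a call and 7 gained one. Depth is unknown, and no counting error can be given.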

Other observations

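Genes around the liver X receptors, nuclear receptors that respond to sterols and drive cholesterol export, form a further list of 5 genes, 4 of them tested, of which 3 fell with both drugs, beside 86.0% of all tested genes. ABCG1, a cholesterol exporter, was called lower with JQ1 at 6 h (-1.09 ± 0.18) and at 24 h with imatinib (-1.71 ± 0.18), JQ1 (-1.98 ± 0.18) and both drugs (-2.6 ± 0.18), and after ratio rescaling these were 0.026, -0.028, -0.33 and -0.30, none a call. NR1H2, a receptor of this family, was at -1.86 ± 0.19 with both drugs, or 0.35 rescaled, and the exporter ABCA1 at -1.02 ± 0.11, or 0.39. MYLIP, the receptor target that marks lipoprotein receptors for degradation, was at 0.34 ± 0.18 with JQ1 at 6 h and, at 24 h, at 0.11 ± 0.18 with imatinib, -0.24 ± 0.18 with JQ1 and -0.40 ± 0.18 with both, none a call. After ratio rescaling all 4 were calls, at 1.36, 1.69, 1.31 and 1.83. MYLIP was named after its values were seen.

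Among the further fatty acid genes, ACSS2, which makes acetyl-CoA from acetate, was called higher after ratio rescaling at 24 h with imatinib (1.96), JQ1 (1.56) and both drugs (1.78), where ACLY, the citrate route to the same product, was at -0.88, 0.17 and -0.52. On the deposited scale ACSS2 changed by 0.31 ± 0.20, -0.058 ± 0.20 and -0.53 ± 0.20, and none was a call. ACSS2 was named after its values were seen.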
